A study of Mus musculus with 8 samples.

Results

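The 10 genes described here are markers of blood vessel endothelium: the junction and adhesion genes Cldn5, Cdh5, Esam and Pecam1, the VEGF receptor genes Kdr and Flt1, the angiopoietin receptor genes Tek and Tie1, the guidance receptor gene Robo4 and the co-receptor gene Eng. They were chosen by symbol, through the accession of each array probe, and were matched by 11 of 55681 probes, with 2 probes for Kdr and 1 for each of the others. All 11 probes were well above background in both channels on all 4 arrays, so all 10 genes passed the filter on dim probes, which left 25139 gene names in all. RNA came from white adipose tissue of 5-week-old mice of strain 129 × C57BL/6 fed regular chow, 4 wild-type (WT) and 4 called Ad/NICD, which overexpress the intracellular domain of Notch1. The sources used here do not give the promoter or Cre line behind the transgene, the fat depot or the sex. Each of the 4 arrays, read in 2 colours, carried 1 WT and 1 Ad/NICD sample. The p-values from tests of the 4 within-array ratios measure the spread between these 4 pairs. Those from fits on separate channels, named where given, rest on the levels of the 8 samples.

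Endothelial cells line the vessels and are held together by tight junctions, which claudins seal, and adherens junctions, which VE-cadherin (Cdh5) builds. VEGF made by tissue cells acts through the receptor tyrosine kinases encoded by Kdr and Flt1, and angiopoietins act through Tek, to control vessel growth and stability. In fat, the capillary bed supplies adipocytes with lipid and oxygen. Notch signalling between endothelial cells is known to restrain vessel sprouting.

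A ratio below 0 means less signal in Ad/NICD, if green (Cy3) held WT and red (Cy5) Ad/NICD RNA. That direction is likely because the authors' value table pairs the channels so, but the samples' dye tags give the reverse. If the tags are right, every sign turns and the 2 genotypes exchange places in each level given here. Dyes were not swapped, so dye and genotype cannot be told apart. Between 58.1% and 68.6% of probes were well above background in a channel. Y-linked genes, which mark male tissue, were above background at 3 and 5 of their 5 probes in the WT and Ad/NICD samples of replicate 4 and at 0 to 1 in the other samples. The transgene itself was not checked, since the part of Notch1 that the array's probe matches is unknown here.

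All 10 genes had a mean log2 ratio below 0, where 51.6% of all gene names did. Their median was -0.32, beside -0.0059 over all gene names, and it was -0.33, -0.31, -0.41 and -0.17 for replicates 1 to 4 in turn. All 10 ratios were below 0 in replicates 1 to 3, and 9 were in replicate 4, where Tek was above. Counted over arrays, 9 of the 10 were lower on all 4, beside 13.3% of gene names. Levels of the 8 samples did not overlap between genotypes for 4 of the 10 (Cldn5, Flt1, Robo4 and Eng, all lower in Ad/NICD), beside 5.58% of gene names. In limma's test of the 4 ratios, 0 of the 10 passed an adjusted p of 0.05 over all gene names, where 0.0477% of gene names passed in either direction and 0.0199% passed as lower. Without adjustment 8 of the 10 had p under 0.05 and a lower value, beside 8.97% of gene names, and 0 had a higher one, beside 6.26%. The list was drawn up with results of these arrays known, so these counts describe it and do not test it.

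**Figure D1:**
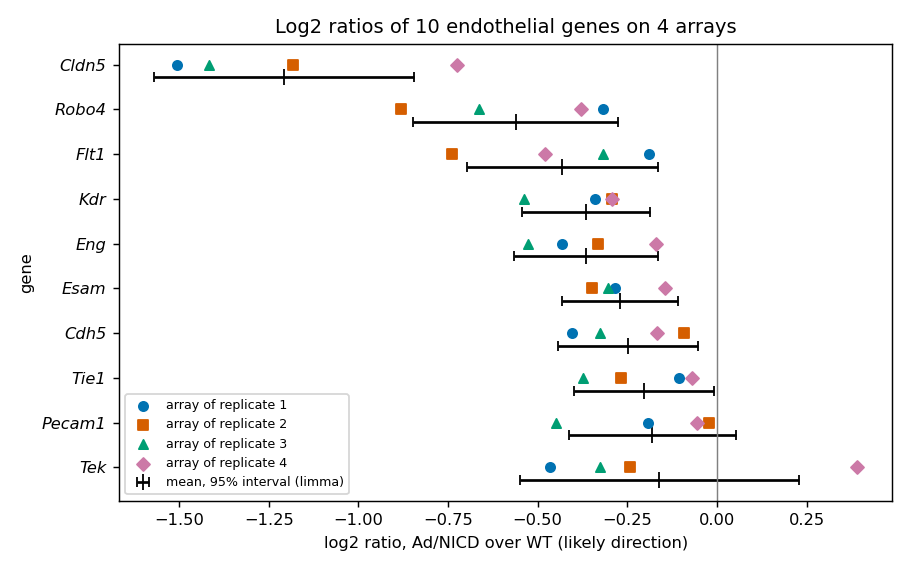
Log2 ratio of Ad/NICD over WT (x axis) for the 10 genes (y axis), with a symbol for each of the 4 arrays and a black bar for the mean and its 95% interval from limma. Cldn5 has the lowest symbol on every array, and the array of replicate 4 gives Tek the 1 value above 0.

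Cldn5 encodes claudin-5, the main tight-junction claudin of endothelium. Its log2 signals were 12.69, 12.59, 12.76 and 13.03 in WT replicates 1 to 4 and 11.19, 11.41, 11.34 and 12.31 in the Ad/NICD samples. The highest Ad/NICD sample, replicate 4, lay below the lowest WT sample, and its WT partner was the highest of all 8. The log2 ratios were -1.51, -1.18, -1.42 and -0.72, with a mean of -1.21 ± 0.143 (SE, n = 4 arrays) and a 95% interval of -1.57 to -0.84, or a fold of 0.433. The gene did not pass in the ratio fit (limma adjusted p = 0.114, unadjusted p 0.000299). With each channel as a sample and the array as a random block it passed (limma adjusted p = 0.0317), as 1.13% of gene names did in the lower direction, and with no replicate block it did not (limma adjusted p = 0.0596), where 0.621% of gene names passed as lower. Without replicate 4 the ratio was -1.37 and the gene passed (limma adjusted p = 0.0481), as 0.135% of gene names did in the lower direction, while without replicate 1, 2 or 3 it did not (limma adjusted p = 0.192, 0.333 and 0.569).

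In the order of mean ratios from the lowest, Cldn5 was at place 88 of the 25139 gene names. It was also the lowest of the 10 on every array. It lay below the median of the other 9 by a log2 difference of -1.19, -0.89, -1.04 and -0.56 on the 4 arrays, and by -0.94 in the means. The median of the other 9 was -0.27. These are unequal log2 ratios within the same arrays, and the difference was not tested because the genes were picked with it in view.

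The other 3 junction and adhesion genes had smaller ratios. Cdh5, the VE-cadherin of adherens junctions, had log2 ratios of -0.40, -0.09, -0.32 and -0.17 and a mean of -0.25 ± 0.077 (limma adjusted p = 0.247). Esam, an adhesion molecule of endothelial tight junctions and platelets, had ratios from -0.35 to -0.15 and a mean of -0.27 ± 0.0641 (limma adjusted p = 0.175). Its 4 ratios had the smallest spread of the 10, with an SD of 0.0873. Pecam1 (CD31), found on endothelium, platelets and leukocytes, had ratios from -0.45 to -0.02 and a mean of -0.18 ± 0.0917, with a 95% interval of -0.41 to 0.05 that includes 0 (limma adjusted p = 0.428). Without replicate 3 its ratio was -0.09, and in replicates 2 and 4 its 2 spots lay on opposite sides of 0. Sample levels of Cdh5, Esam and Pecam1 overlapped between genotypes.

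Kdr encodes VEGFR2, the main signalling receptor for VEGF-A, and was the 1 gene of the 10 that more than 1 probe matched by accession. Only 28026 of 55681 probes got a symbol this way, so further probes of the 10 genes may stand under other names. Probe A_51_P316553, printed at 10 spots on each array, had log2 signals of 11.42, 11.34, 11.48 and 11.81 in WT and 11.08, 11.05, 10.94 and 11.52 in Ad/NICD. Each WT sample lay above its partner, while the groups overlapped, with the Ad/NICD sample of replicate 4 above all WT samples but its own partner. Its mean log2 ratios were -0.34, -0.29, -0.54 and -0.29, and all 10 spots were below 0 on each array, with an SD between spots of 0.0612 to 0.0908. The mean over arrays was -0.37 ± 0.0705 (limma adjusted p = 0.140).

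The other Kdr probe, A_55_P2094469, had 1 spot and is annotated with the same transcript accession (NM_010612). Its log2 ratios were 0.82, -0.11, 0.03 and -0.35, with a mean of 0.10 and an SD of 0.51 (limma adjusted p = 0.857 over all kept probes, of which 0.0348% passed). Only on the array of replicate 1 was it far from 0 in the upward direction, and without that array its mean was -0.14. Its log2 ratio less that of the 10-spot probe was 1.16, 0.18, 0.57 and -0.06. The mean difference was 0.46 (SD 0.53, n = 4 arrays), less than its own SD. An exact sign-flip test of the 4 differences, in either direction, gave p = 0.25. The smallest p this test could give with 4 arrays was 0.125, so it cannot decide whether the probes differ. The probes were also known to disagree beforehand. The place of either probe on the transcript is unknown here. Taking the mean of both probes moved the Kdr ratio to -0.13.

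**Figure D2:**
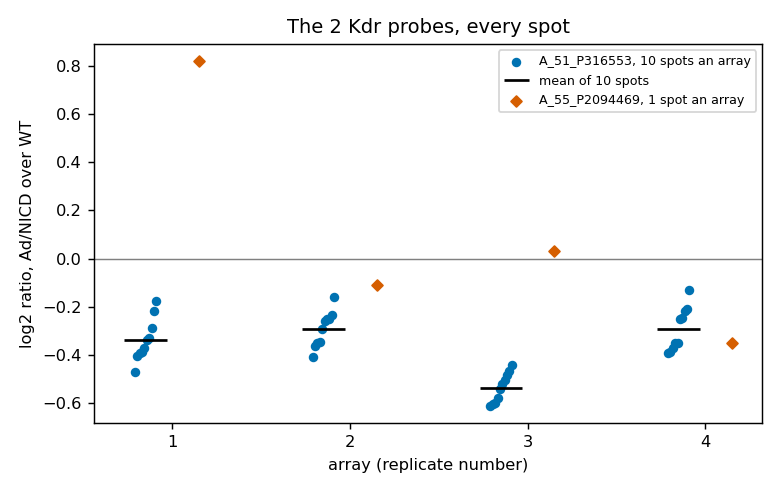
Log2 ratio of Ad/NICD over WT (y axis) for every spot of the 2 Kdr probes on the 4 arrays (x axis), with a black line at the mean of the 10 spots. All spots of the 10-spot probe are below 0 on every array, and the single spot of the other probe runs from 0.82 in replicate 1 to -0.35 in replicate 4.

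Flt1 encodes VEGFR1, which binds VEGF-A and placental growth factor and can act as a decoy. Its log2 signals were 11.91, 12.28, 11.84 and 12.21 in WT and 11.73, 11.54, 11.52 and 11.73 in Ad/NICD. The groups did not overlap, and the gap between the lowest WT and the highest Ad/NICD sample was small. The mean log2 ratio was -0.43 ± 0.105, a fold of 0.741, from -0.74 in replicate 2 to -0.19 in replicate 1 (limma adjusted p = 0.183).

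Tek encodes Tie2, the receptor of the angiopoietins, and Tie1 its partner receptor. Tek had log2 ratios of -0.47, -0.24, -0.33 and 0.39, and a mean of -0.16 ± 0.153 (limma adjusted p = 0.669). Without replicate 4 its ratio was -0.35, and without replicate 1 it was -0.06. Tie1 had ratios from -0.37 to -0.07 and a mean of -0.20 ± 0.0766 (limma adjusted p = 0.311).

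Robo4, a roundabout receptor found mainly on endothelium, had the next lowest ratio after Cldn5. Its log2 signals were 11.70, 12.03, 11.70 and 11.89 in WT and 11.38, 11.15, 11.03 and 11.51 in Ad/NICD, with no overlap. The mean log2 ratio was -0.56 ± 0.113, a fold of 0.678, with a 95% interval of -0.85 to -0.28. Robo4 did not pass (limma adjusted p = 0.147, 0.0516 with the array as a random block and 0.0841 with no replicate block). Eng encodes endoglin, a co-receptor for BMP and TGF-beta ligands. Its log2 signals were 10.10, 10.28, 10.20 and 10.06 in WT and 9.66, 9.94, 9.67 and 9.89 in Ad/NICD, with no overlap. The mean log2 ratio was -0.36 ± 0.0795 (limma adjusted p = 0.160, 0.0631 with the array as a random block and 0.106 with no replicate block).

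**Figure D3:**
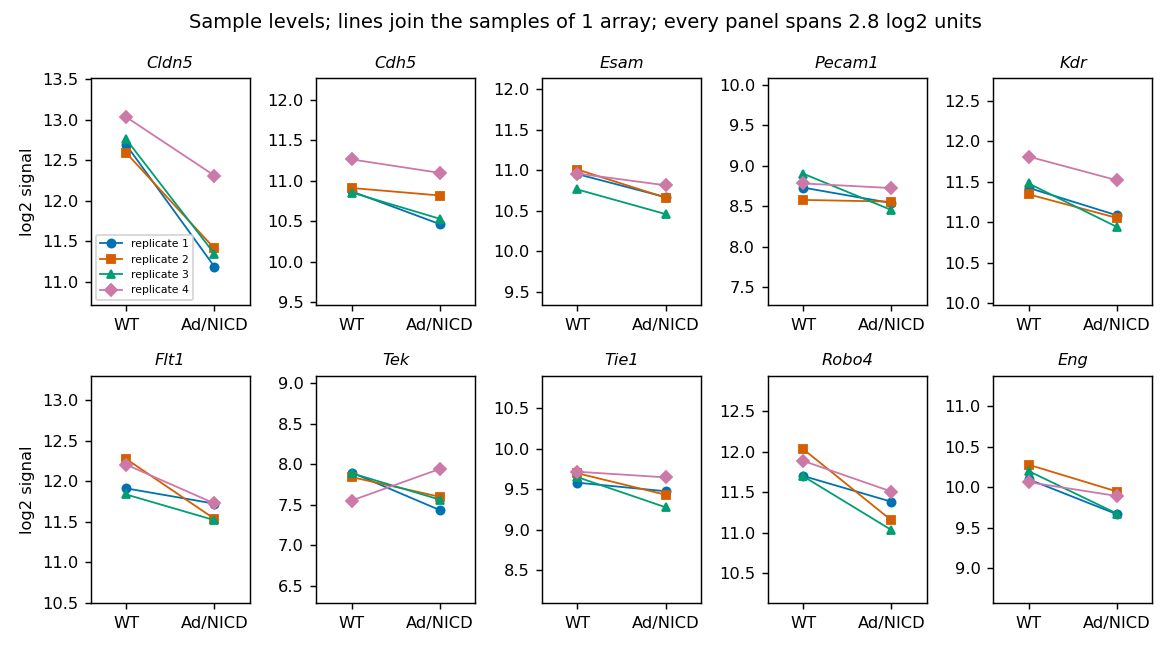
Log2 signal (y axis) of each of the 10 genes in WT and Ad/NICD samples (x axis), 1 panel a gene, with a line joining the 2 samples of an array. The lines run downward in every panel except for replicate 4 in that of Tek, and they are steepest for Cldn5.

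For 7 of the 10 genes the RefSeq promoter table (GRCm38.p6) held the 250 bases before a transcription start, and for Cldn5, Eng and Tie1 this window lay wholly before the annotated gene. Those 3 are printed because they belong to the gene with the lowest ratio and to a pair with smaller ratios. Capitals mark GGAA or its reverse complement TTCC, the core of sites for ETS factors, which are known regulators of endothelial genes. The windows are chr16:18776597-18776846 (plus strand), chr2:32646345-32646594 (plus strand) and chr4:118489850-118490099 (minus strand), each 5′ to 3′ on the gene's strand.
Cldn5: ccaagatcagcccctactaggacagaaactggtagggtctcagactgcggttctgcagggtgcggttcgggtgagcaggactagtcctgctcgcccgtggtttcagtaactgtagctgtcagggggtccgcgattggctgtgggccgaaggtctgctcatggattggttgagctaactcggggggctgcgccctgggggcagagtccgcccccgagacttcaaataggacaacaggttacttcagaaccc
Eng: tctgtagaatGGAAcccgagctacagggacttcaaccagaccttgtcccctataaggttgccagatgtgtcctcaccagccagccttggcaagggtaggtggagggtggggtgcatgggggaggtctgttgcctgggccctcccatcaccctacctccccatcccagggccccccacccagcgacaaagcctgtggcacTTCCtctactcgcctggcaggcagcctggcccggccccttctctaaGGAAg
Tie1: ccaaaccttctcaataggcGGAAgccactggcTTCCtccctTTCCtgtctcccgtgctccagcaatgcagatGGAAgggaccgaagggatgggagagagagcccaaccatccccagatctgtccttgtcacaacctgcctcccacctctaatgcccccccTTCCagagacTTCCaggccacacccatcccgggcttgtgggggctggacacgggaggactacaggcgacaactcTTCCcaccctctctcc

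The Cldn5 window held 0 matches to GGAA on either strand, the Eng window 3 and the Tie1 window 7. Over all 7 genes, 6 windows held at least 1 match, beside 93.4% of 32851 windows of that length in the table. TGGGAA, the core bound by the Notch partner RBPJ, which itself contains GGAA, was in the windows of 2 genes, Kdr and Tie1, beside 21.6% of all windows. ACAAT, a SOX motif, was in those of Tek and Robo4, beside 27.7%. TAAACA (forkhead) and CACGTG (E-box) matched in 0 of the 7, beside 12% and 6.0%. These are matches of letters in a window, on both strands, and no binding was measured.

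Ligands and partners of these receptors, with some related vascular genes, were taken from lists made for this account. Of 9 VEGF, angiopoietin and related ligand genes, 6 had ratios below 0 and 3 above, with a median of -0.26 and 0 past the threshold in either direction. Vegfa, the main ligand of Kdr, had -0.26 ± 0.0791, and Vegfb, a ligand of Flt1, had -0.48 ± 0.135. Pgf, placental growth factor, had the highest ratio at 0.44 ± 0.0904, and Apln, the apelin peptide gene, the lowest at -0.68 ± 0.167. Angpt1, the activating ligand of Tek, had 0.38 ± 0.0686. Vegfa, Vegfb and Angpt1 were picked out after their values were seen. Of 12 genes listed as other vascular receptors and co-receptors, 8 were below 0, with a median of -0.04, and 0 passed. That list also holds the secreted ligand genes Slit2 and Slit3. The extremes were Ptprb, the endothelial phosphatase VE-PTP, at -0.33 ± 0.103, and Nrp2, a co-receptor for VEGF-C, at 0.22 ± 0.102.

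Among 24 other junction genes, 18 had ratios below 0, with a median of -0.11, and 0 passed in the ratio fit. F11r, junctional adhesion molecule A, had the highest at 0.69 ± 0.135 and was higher on all 4 arrays, as 11.2% of gene names were. The random block of arrays took it past the threshold (limma adjusted p = 0.0430), as 0.843% of gene names did in the higher direction. With no replicate block F11r did not pass (limma adjusted p = 0.0679). Cgn, the tight-junction adaptor cingulin, had the lowest at -0.71 ± 0.324. The list holds claudins of epithelium, and those of its claudins that were measured ran from -0.57 for Cldn3 to 0.06 for Cldn15, named after their values were seen.

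Genes of endothelium outside the 10 gave values on both sides of 0. Of 25 other pan-endothelial genes, 17 were below 0 and 8 above, with a median of -0.10 and 0 past the threshold. On all 4 arrays, 4 of the 25 were lower (Sox17, Icam2, Nos3 and Gpihbp1), beside 13.3% of gene names. In the other direction 3 were higher on all 4 (Plvap, Mcam and Arhgef15), beside 11.2% of gene names. These genes are named here after their values were seen. Nos3, the endothelial nitric oxide synthase, had the lowest ratio at -0.70 ± 0.148, and Gpihbp1, which carries lipoprotein lipase in capillaries, had -0.61 ± 0.117. Cd34, a surface protein of endothelium that adipose progenitors also carry, had the highest at 0.52 ± 0.275. The list's array medians were -0.36, 0.04, -0.20 and 0.21 for replicates 1 to 4, so its sign differed between arrays. The median of the 10 was below 0 on each. The 10 were chosen with results of these arrays known, so this contrast is a description and was not tested. In bulk tissue, fewer endothelial cells and less RNA per cell cannot be told apart.

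**Figure D4:**
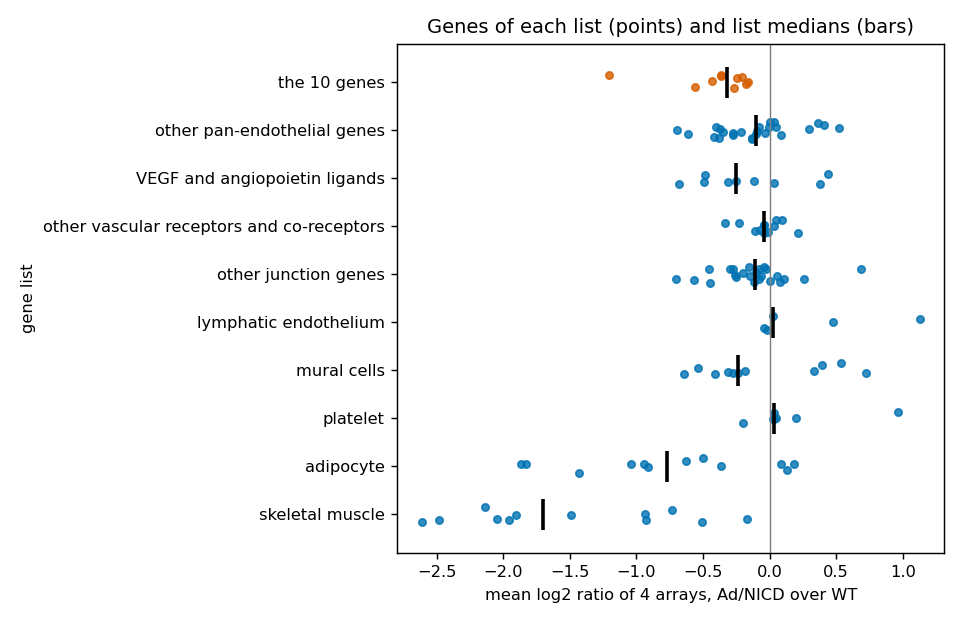
Mean log2 ratio over 4 arrays (x axis) of each measured gene (points) in the 10 genes and 9 other lists (y axis), with a black bar at each list's median. The 10 genes all lie below 0, as do the 12 skeletal muscle genes, which reach the lowest values. The other pan-endothelial genes lie on both sides with a median of -0.10. The macrophage and leukocyte, erythroid and mammary epithelium lists are not drawn, and all measured genes of the last 2 were also below 0.

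Markers of other cell types also had ratios away from 0 on the same arrays, and their part in the endothelial ratios was not tested. Of 12 adipocyte genes, 9 were below 0, with array medians of -0.30, -1.23, -1.28 and -0.09. Their summed signal ran from 265164 to 364868 intensity units in WT and from 128583 to 241356 in Ad/NICD. The lowest was Adrb3, the beta-3 adrenergic receptor, at -1.87 ± 0.225, and the highest Lep, leptin, at 0.19 ± 0.0921. With the array as a random block, Adrb3 (limma adjusted p = 0.0390), Adig at -1.04 ± 0.183 (0.0226) and Retn, resistin, at -1.83 ± 0.386 (0.0472) passed as lower, as 1.13% of gene names did. With no replicate block Adig still passed (limma adjusted p = 0.0354), and Adrb3 (0.0727) and Retn (0.0715) did not. Skeletal muscle genes were below 0 for 12 of 12, with array medians of -0.51, -1.91, -0.47 and -3.73. Their summed signal ran from 5452 to 201309 in WT and from 3466 to 15091 in Ad/NICD, and the extremes were Tnnc2 at -2.61 ± 0.464 and Mylpf at -0.17 ± 0.0754.

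Mural cell genes, of pericytes and smooth muscle, had 7 of 11 below 0 and a median of -0.24, and their summed signals overlapped, at 19280 to 45059 in WT and 27547 to 39229 in Ad/NICD. The extremes were Cnn1 at -0.64 ± 0.597 and Notch3 at 0.73 ± 0.160. Lymphatic endothelium genes had 3 of 5 measured above 0, summed signals of 1820 to 3289 and 3274 to 6174, and a highest ratio of 1.13 ± 0.156 for Lyve1, which macrophages also express, beside -0.04 ± 0.0648 for Flt4. Platelet genes, relevant because Esam and Pecam1 are expressed there, had 6 of 7 measured above 0 and a median of 0.03, with summed signals of 6407 to 8703 in WT and 9707 to 16192 in Ad/NICD. The extremes were Pf4 at 0.96 ± 0.240 and Treml1 at -0.20 ± 0.121. Pf4 was the brightest of these genes (mean log2 signal 12.23 in WT and 13.19 in Ad/NICD), so it weighs most in the sums. It alone of the 7 was higher on all 4 arrays, and whether platelet RNA as a whole differed was not tested. The integrin and glycoprotein genes Itga2b, Gp9, Itgb3 and Gp1bb had ratios from 0.03 to 0.05, with Itgb3 running from -0.53 to 0.44 between arrays. Ppbp had 0.20 ± 0.105. Itga2b, Gp9, Gp1bb and Ppbp were dim, with mean log2 signals in WT of 6.72, 6.35, 6.21 and 6.73. Since normexp added an offset of 50 to each signal, the small ratios of these dim genes say little. Genes other than the extremes were named after their values were seen.

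Macrophage and leukocyte genes had 5 of 10 above 0, from -0.56 ± 0.185 for Cd79b to 0.65 ± 0.248 for Mrc1, with summed signals of 38316 to 52483 in WT and 34755 to 48202 in Ad/NICD. Erythroid genes were below 0 for 5 of 5 measured, from -0.88 ± 0.199 for Hbb-b1 to -0.30 ± 0.134 for Hba-a2, with sums of 90890 to 119961 and 60756 to 101040. Mammary epithelium genes were below 0 for 6 of 6 measured, from -0.94 ± 0.413 for Krt5 to -0.26 ± 0.260 for Krt18, with sums of 513 to 24334 and 534 to 28141. Their array medians were -1.07, -1.44, 0.25 and -0.0026, and 1 of the 6 was lower on all 4 arrays, beside 13.3% of gene names. In these 6 lists and the 2 before them, 0 genes passed the ratio fit. Listed genes without a kept probe under their symbol included Ccl21a, Reln, Gp1ba, Hbb-bs, Wap and Csn2.

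Over the 8 sample levels, the gene names outside the 10 whose pattern was most like that of Cldn5 were, by Pearson's r, the transcript AK020824 (0.99), a transcribed region of chromosome 9 known by its coordinates alone (0.99), the transcript ENSMUST00000092891 (0.98), the acylpeptide hydrolase gene Apeh (0.98) and the transcript XR_388995 (0.98). For the mean level of the 10 they were Prxl2b, Ngly1, Acp5, Cebpa and the same region of chromosome 9. Cebpa, a transcription factor of fat cell formation, had a log2 ratio of -0.93 ± 0.173 and Prxl2b had -0.65 ± 0.104. These are the 5 highest of 25139 over 8 samples that share arrays in pairs and differ by genotype, and are given as a description.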

How the data were processed

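The submitters' processing notes name Agilent Feature Extraction 11.5. Its deposited tables give each spot's intensity in both channels and a log10 ratio of red over green, and same-numbered WT and Ad/NICD tables were identical. The authors' value table is on a log2 scale: each WT column matched the green and each Ad/NICD column the red processed signal of its array, less a constant. The sources used here do not give its steps. The dye tags contradict it.

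Median foreground and background were corrected by normexp (offset 50) and loess-normalised within arrays, with controls at weight 0 (limma 3.58.1, R 4.3.3). Of 55681 probes, 28026 got a symbol from a RefSeq table of GRCm38.p6. Probes well above background in a channel on at least 3 of 4 arrays were kept (34464). These flags are missing for replicate 1 and were set where the background-subtracted signal exceeded 6 median absolute deviations of negative controls, a rule equal to the deposited flags for 98.3% to 100.0% of spots elsewhere. The brightest probe stood for each of 25139 gene names.

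The 4 log2 ratios were tested against 0 with limma (lmFit, eBayes; Benjamini-Hochberg, 0.05). This pairs samples by array; same-numbered samples correlated at 0.18, 0.17, 0.56 and 0.53 in their deviations from group means. Sample levels are channel log2 signals after loess and Aquantile. The genes and lists were chosen with earlier results of these arrays known. In other lists, the highest and lowest gene and those that passed a fit were named, and some further genes were named after their values were seen. The number of arrays limits the precision.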

Additional observations from a re-analysis of the deposited data

Results flagged for a closer look

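Of 30 groups of 4 values examined (levels in WT, levels in Ad/NICD and ratios of the 10 genes), 2 had a sample whose gap to its nearest neighbour exceeded Dixon's 95% critical share of the group's range, where chance gives about 1 in 20. The WT sample of replicate 4 had a Cdh5 log2 signal of 11.26, with the other 3 between 10.85 and 10.91. The same sample had a Tek log2 signal of 7.55, with the other 3 between 7.84 and 7.90. In this pair 3 and 5 of 5 Y-linked probes (WT and Ad/NICD) were above background, beside 0 to 1 in the other samples. The cause was not tested.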

How the results depend on the processing

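Of 196 values recomputed under 14 alternatives, 180 kept their direction and side of the threshold (or stayed within the spread) and 0 reversed. Each of the 10 genes was below 0 under all 14. The changes of filter, the eBayes settings and the separate-channel fits left each gene's ratio itself unchanged, so its sign there was fixed. Taking the mean of kept probes could change the ratio of Kdr alone. The gene names past the threshold, 12 in the ratio fit (7 higher, 5 lower), numbered 3 with the scanner's log ratio (2 higher, 1 lower), 3 with the authors' value table, 0 with median-centring, 0 with no filter on dim probes and 0 with eBayes trend and robust settings. At an unadjusted p under 0.05 limma counted 9621, 5092 and 2898 in those last 3. An offset of 10 gave 8 higher and 10 lower. In separate channels there were 496 with the array as a random replicate block and 256 with no replicate block, and leaving out each replicate gave 0 to 43. Of the 10 genes, 1 passed with the random block (Cldn5, at the same -1.21) and 0 to 1 when a replicate was left out, Cldn5 ranging from -1.37 to -1.11. Its adjusted p ranged from 0.0317 to 0.569. The median of the 10 was -0.81 with median-centring in place of loess, which took the median of all gene names to -0.32, a difference of -0.49 beside -0.31 in the ratio fit; the cause was not tested. There were 4 arrays and no dye swap. All 10 genes were above background in both channels, but the ratio of Tek, the dimmest, moved with the processing. It was -0.16 in the ratio fit and -0.18 at an offset of 10. With the scanner's log ratio it was -0.27 and with the authors' value table -0.29. The reason was not tested.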
